A study of Ovis aries with 16 samples.

Results

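Cytochrome P450 genes were followed across liver and skeletal muscle of adult sheep that had or had not been exposed to bisphenol A (BPA) before birth. A gene was taken when its symbol began with CYP, a family number and a subfamily letter and its value was above 0 in at least 4 of the 16 libraries. CYP51A1, a cholesterol synthesis enzyme, was left out. Of 28524 genes in the table, 12 had such a symbol and 11 met the requirement. The exception was CYP4F21, which was above 0 in 1 library. By class, 7 of the 11 act mainly on drugs and other foreign compounds (CYP1A1, CYP2A6, CYP2C18, CYP2C19, CYP2D6, CYP2E1 and CYP3A24), 1 acts on fatty acids (CYP2J) and 3 make steroid hormones (CYP11A1, CYP11B1 and CYP17A1). The bile acid class had 0 members, and its 6 listed symbols were not analysed here.

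Cytochromes P450 are haem proteins that insert an oxygen atom into small fatty molecules, using electrons passed to them by a reductase, cytochrome b5 or, in mitochondria, ferredoxin. In the liver they make drugs, solvents and fats more soluble before excretion, and their genes are switched on by receptors that sense foreign compounds and bile acids, such as AHR, NR1I2 (the pregnane X receptor) and NR1I3 (the constitutive androstane receptor). The steroid-making enzymes work mainly in the adrenal gland, the gonads and the placenta.

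The 8 animals were female Suffolk sheep about 21 months old, sampled after 48 hours without feed, in the late follicular phase of a cycle that had been synchronized. The mothers of the 4 BPA sheep (910, 918, 977 and 984) had been given 0.5 mg/kg of BPA, a plasticizer with weak oestrogen-like activity, in corn oil under the skin every day from day 30 to day 90 of pregnancy. The mothers of the 4 control sheep (902, 908, 924 and 928) had been given corn oil. RNA came from the tip of the left liver lobe and from the vastus lateralis, a thigh muscle, of each animal, giving 4 libraries in each of 4 groups. Values are normalized read counts, meaning reads per gene divided by a size factor per library. They were compared between samples of a gene, not between genes, because they are not divided by gene length. In these pieces of whole tissue, fewer cells of a type and less RNA per cell cannot be told apart.

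The tissue labels were checked against marker genes. Over the 14 skeletal muscle fibre markers found, the summed value was 256 to 1106 in the livers and at least 3428070 in the muscles, and every liver had a higher sum of the 16 hepatocyte markers than every muscle. The liver libraries nevertheless fell into separate kinds. The hepatocyte sum was 1578740 to 1745170 in the control livers 908, 924 and 928 and 1781490 in the BPA liver 910, but 344816 to 558193 in the other BPA livers and 91009 in the control liver 902. Liver 902 also had a fibroblast marker sum of 120540, with 2681 to 8037 in the other livers. Liver libraries held 4.39 to 19.28 M recovered reads (M, 1e6) and muscle libraries 15.15 to 28.54 M. The livers under 15 M reads were 902, 918, 977 and 984. Liver results between BPA and control are therefore given for all 8 livers first, and then without 902, without 910 and without both for the P450 genes and their partners. Markers of other cell types also differed between livers: the macrophage sum was 1097 to 2241 in 918, 977 and 984 and 6019 to 10415 in the other 5, the bile duct sum 232 to 311 and 426 to 1517, and the endothelial sum 5594 to 8173 and 5467 to 10458. Of these markers, 9 of 9 macrophage, 6 of 6 bile duct and 9 of 10 endothelial genes had lower estimates in BPA livers. So did 10 of 10 fibroblast genes, and limma called 0 in any of these lists. With 902 set aside, the fibroblast sum was 6060 to 8037 in controls and 2681 to 5686 in BPA livers.

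Every P450 gene of the drug class, and CYP2J, was higher in liver than in muscle. Of the 11 genes, 9 had a mean of at least 10 over the 16 libraries and were tested, and 8 passed an adjusted p of 0.05 in limma, all of them higher in liver. Of all 15995 genes tested, 71.4% passed, 36.1% as higher in liver and 35.3% as higher in muscle. The median log2 difference was 5.86 for the 9 genes and 0.06 for all genes. With every library scaled to the same total, which moved the median of all genes to 1.03, 9803 genes passed as higher in liver and 2705 as higher in muscle, compared with 5780 and 5640 here, and the same 8 P450 genes were higher.

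In the drug class the widest gap between tissues was that of CYP2A6, which oxidises coumarin and nicotine. Its normalized count in liver ran from 1558 through a median of 11503 to 20228, and in muscle from 38.4 through 69.4 to 189.9. The 2 ranges did not meet, and the log2 difference was 6.90 (SE 0.48, limma adjusted p = 1.84e-09). The smallest gap of the class was that of CYP2D6, an oxidase of many basic drugs, at 3.78 (SE 0.59, limma adjusted p = 2.55e-05), with 145 to 6355 in liver and 66.2 to 138 in muscle. The other 5 lay between 5.77 and 6.77.

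CYP2J, the only fatty acid member, makes epoxides of arachidonic acid. It stood at 762 to 2621 in liver (median 939) and at 21.3 to 38.9 in muscle (median 33.3). The log2 difference was 5.24 (SE 0.20, limma adjusted p = 1.15e-12).

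A low level of the liver P450 genes was present in muscle. The muscle median was 0.491% to 1.33% of the liver median for CYP2C18, CYP2A6, CYP3A24, CYP2E1, CYP2C19 and CYP1A1. Set beside them, the 16 hepatocyte markers stood in muscle at 0.682% (VTN) to 2.57% (FGB) of their liver medians, with albumin at 1.21%. CYP2J (3.54%) and CYP2D6 (7.15%) were above all 16 of them. Whether liver RNA had a part in the muscle values was not tested.

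Of the steroid class, only CYP11A1, which cuts the side chain of cholesterol in the first step of steroid synthesis, had a mean high enough to be tested between tissues, and it did not pass (log2 difference 0.25, SE 0.97, limma adjusted p = 0.830). CYP11B1, which completes cortisol, ranged from 0 to 17.0 in liver and from 0 to 52.4 in muscle. CYP17A1, on the route to cortisol and androgens, ranged from 0.688 to 5.65 in liver and from 0 to 3.65 in muscle. The high values of CYP11A1 and CYP11B1 in each tissue were those of 1 animal, sheep 902, as described below.

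In liver, no P450 gene passed the test between BPA and control sheep. Of the 9 genes tested, 0 were called by limma, as were 0 of all 15689 genes tested (0%). The estimate was higher in BPA livers for 3 of the 9 and lower for 6, with a median log2 difference of -0.21, and lower for 50.7% of all genes, with a median of -0.01. An unadjusted p under 0.05 was reached by 1 of the 9 (CYP2J) and by 18.1% of all genes. For none of the 9 did the 4 BPA livers lie wholly above or below the 4 controls, whereas they did so for 7.61% of all genes. With DESeq2 on the recovered reads, 196 genes but none of the P450 genes passed in liver, and with edgeR 0 genes passed.

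CYP2J had the smallest p of the P450 genes. Its normalized count was 848, 762, 788 and 998 in control livers 902, 908, 924 and 928, and 880.4, 2621, 1665 and 2230.1 in BPA livers 910, 918, 977 and 984. The BPA livers 918, 977 and 984 lay above all 4 controls, whereas 910 lay within the control range. The group means were 849 ± 106 and 1849 ± 756 (SD, n = 4 each). On the log2 scale they differed by 1.02 (SE 0.37), with a limma adjusted p of 0.256 and an unadjusted p of 0.0199.

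The groups overlapped for all 7 drug genes in liver. CYP2D6 had the smallest p of the class, with 145, 3445, 4593 and 6355 in control livers 902, 908, 924 and 928 and 1446, 510.1, 1527 and 1026 in BPA livers 910, 918, 977 and 984. The control livers other than 902 lay above all BPA livers, and 902 lay below all of them. The means of 3635 ± 2616 and 1127 ± 466 (SD, n = 4 each) differed by -0.92 on the log2 scale (SE 1.06, limma adjusted p = 0.639). Leaving out 1 library at a time moved this estimate from -2.16 without control 902 to -0.35 without control 928, and it did not pass in any of these fits.

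The control liver 902 was the lowest of the 8 for each of the 7 drug genes. For CYP2E1, which oxidises ethanol and small solvents, it read 5943, with 110128 to 174320 in the other controls. The BPA livers read 143589 in 910 and 21141 to 33520 in 918, 977 and 984, so 910 lay among the controls. CYP2C19, which oxidises several drugs, was arranged alike: 30.1 in 902, 649 to 1068 in the other controls, 1127 in 910 and 177 to 237 in the other BPA livers.

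The other 4 drug genes did not pass, and their libraries were not all arranged in this way. CYP1A1, which oxidises polycyclic aromatic hydrocarbons and is the standard target of AHR, ran from 132 (902) to 6703 (908) in controls and from 533 to 2763 in BPA livers. CYP2A6 ran from 1558 to 20228 and from 5642 to 13462. CYP3A24, of the subfamily with the broadest range of drug substrates, ran from 1042 to 23902 and from 5205 to 17800.4, and BPA liver 918 (15284) lay above control 928 (14218).

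CYP2C18, a relative of CYP2C19, had the narrowest range of the drug genes once 902 was set aside, at 644 to 909 in the other 7 livers and 181 in 902. Its SE (0.50 on the log2 scale) was the smallest of the class, and the other 6 had SEs of 0.81 to 1.16. The estimates of the 7 drug genes ran from -0.92 (CYP2D6) to 0.31 (CYP2C18), with limma adjusted p-values of 0.639 to 0.932.

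**Figure D1:**
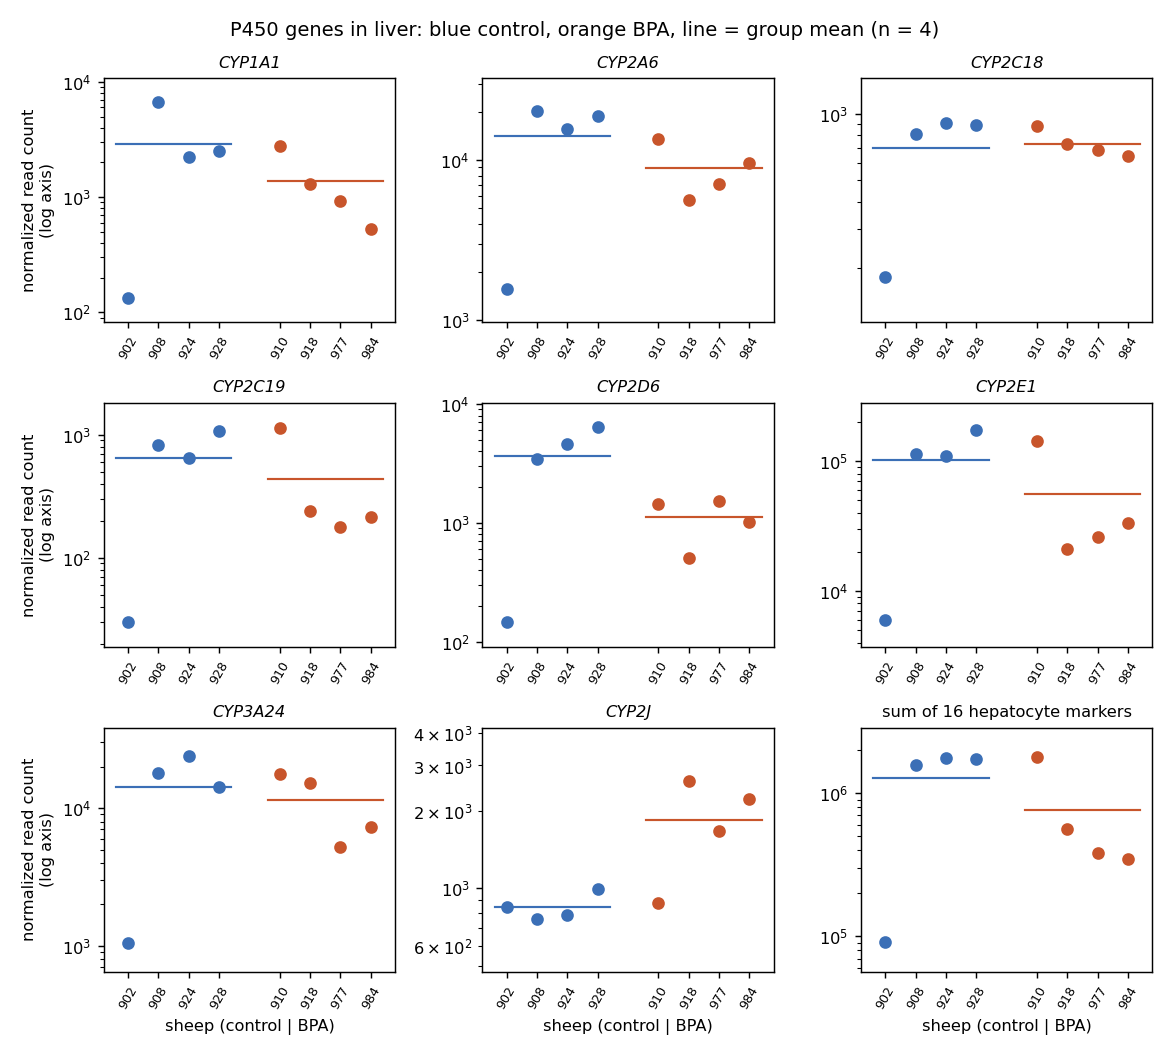
Normalized read count (log axis) of the 7 drug P450 genes, CYP2J and the sum of 16 hepatocyte markers in each liver, with control sheep in blue, BPA sheep in orange and a line at the group mean (n = 4). The control liver 902 is lowest for all 7 drug genes and for the marker sum, and CYP2J is at 1665 to 2621 in BPA livers 918, 977 and 984 and at 762 to 998 in the other 5.

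Libraries were then set side by side as log2 distances from the mean of the 8 livers. The median hepatocyte marker was at -2.81 in 902, at 1.25 to 1.37 in 908, 924, 928 and 910, and at -0.49 to -0.91 in 918, 977 and 984. CYP2E1 had the same arrangement, at -3.05, then 1.16 to 1.83, then -0.55 to -1.22. CYP2J had another: -0.50 in 902, -0.27 to -0.66 in the 4 livers of high hepatocyte sum, and 0.47 to 1.12 in 918, 977 and 984. The part of hepatocyte content in the drug gene values was not tested.

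**Figure D2:**
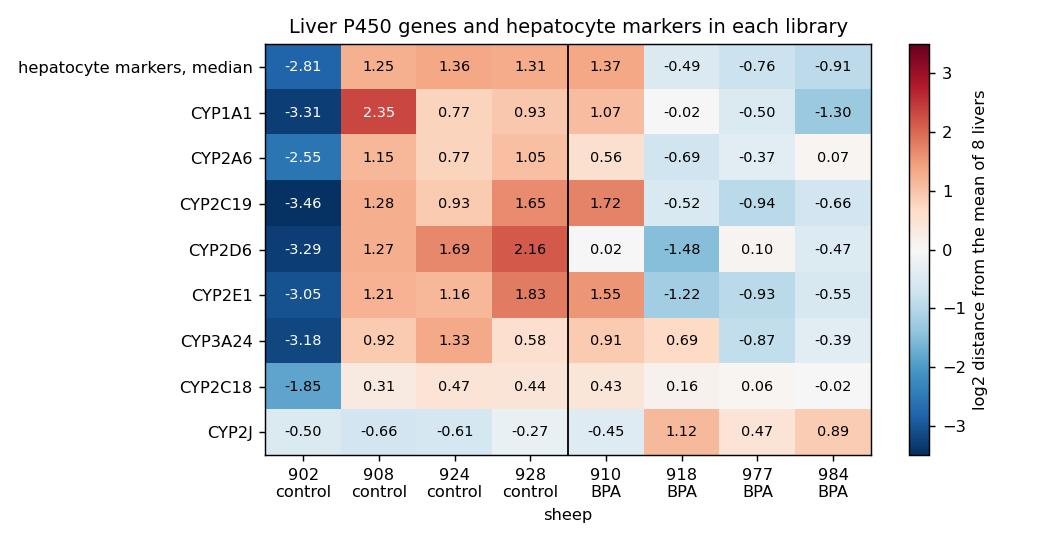
Log2 distance of each liver library from the mean of the 8 livers for the median of the hepatocyte markers and for 8 P450 genes, with colour and printed number giving the distance. Control 902 is lowest for the 7 drug genes, while CYP2J is above the mean in BPA livers 918, 977 and 984 alone.

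The liver result depended on which libraries were included. Without the BPA liver 910, CYP2J passed, at a log2 difference of 1.34 (limma adjusted p = 0.0163). It was 1 of 9 P450 genes to do so, beside 2595 of all 15741 genes tested (16.5%). The BPA livers left in that fit all had under 15 M reads, and of the controls only 902 did. Their macrophage sums were 1097 to 2241, with 6560 to 10415 in the controls. Macrophage marker content and treatment therefore cannot be told apart in that fit. Without the control liver 902 no gene passed, and CYP3A24 (-0.86) and CYP2C18 (-0.25) took the opposite sign. Without both, 6594 of 15296 genes passed (43.1%), and so did 6 of the 8 P450 genes still tested. CYP2J rose (1.34, limma adjusted p = 0.00307), and CYP2D6 (-2.32), CYP2E1 (-2.30), CYP2C19 (-1.99), CYP1A1 (-1.96) and CYP2A6 (-1.32) fell. In that comparison the 2 libraries had been chosen from their values. The 3 remaining controls all had over 15 M reads and the 3 remaining BPA livers all had fewer. Hepatocyte sums were 1578740 to 1745170 in these controls and 344816 to 558193 in these BPA livers, and macrophage sums 6560 to 9782 and 1097 to 2241. Depth, cell type marker content and treatment therefore cannot be told apart.

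Read depth ran with the same libraries. Among the livers over 15 M reads, CYP2J was at 762, 788 and 998 in controls and 880.4 in the BPA liver 910. Among those under 15 M, it was at 848 in the control 902 and at 1665 to 2621 in the BPA livers. With depth class as a term, the CYP2J difference was 0.70 (limma adjusted p = 0.308) and 0 genes passed. In that fit 5 drug genes that had negative estimates took positive ones, from 0.49 (CYP2D6) to 1.59 (CYP2C19). These estimates rest on 902 as the only control under 15 M reads and on 910 as the only BPA liver over it. Liver 902 was lowest for every drug gene and had a hepatocyte sum of 91009, with at least 344816 in the other livers. Its part in the change of sign was not tested.

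The steroid P450 genes gave no comparison between treatments that rested on more than 1 animal. CYP11A1 was at 149 in control liver 902 (79 reads), at 0.688 in 908 and at 0 in 924 and 928, and in BPA livers at 0 in 910, 918 and 977 and 1.68 in 984. Its log2 difference of -1.64 (SE 1.69, limma adjusted p = 0.596) was set by 902, and without that library the gene fell below the minimum mean. CYP11B1 and CYP17A1 were too low for the main test in liver.

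Sheep 902 was also highest in muscle for these genes. CYP11A1 was at 20.7 in its muscle and at 0 to 1.40 in the other 7, and CYP11B1 at 52.4 and at 0 to 7.02. CYP17A1 was at 3.65 in the muscle of 902 and at 0 to 2.81 in the others, which are 3 reads and at most 2.

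Genes that serve the P450 enzymes were taken as 3 lists: electron transfer partners, haem synthesis and breakdown, and the sensing receptors. Of the 26 tested in liver, limma called 0 between BPA and control, 12 estimates were higher and 14 lower, and 5 had an unadjusted p under 0.05, near the 18.1% of all genes. The groups did not overlap for 2 of the 26, FDX1 and NR5A2, near the 7.61% of all genes. Reductase POR, cytochrome b5 form CYB5B and its reductase CYB5R3 were not analysed here.

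Of the 5 electron transfer genes, 1 had a higher and 4 a lower estimate in BPA livers. FDX1, the ferredoxin that feeds mitochondrial P450 enzymes such as CYP11A1, had the smallest p. It was at 725, 823, 700.2 and 761 in control livers and 689, 389, 268 and 306 in BPA livers 910, 918, 977 and 984, and all 4 BPA values lay below all 4 controls. The log2 difference was -0.96 (SE 0.33, limma adjusted p = 0.256).

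Of the 10 haem genes, 3 had a higher and 7 a lower estimate. HMOX1, the haem oxygenase that breaks haem down, had the smallest p, with 586, 1342, 831 and 1116 in controls and 734, 87.4, 249.5 and 353 in BPA livers. BPA liver 910 lay within the control range and the other 3 below it, in the same livers whose macrophage sums were low. The log2 difference was -1.75 (SE 0.58, limma adjusted p = 0.256). HMOX1 is also expressed by macrophages, and the part of macrophage content in its values was not tested.

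Of the 11 receptors tested, 8 had a higher and 3 a lower estimate in BPA livers, with a median log2 difference of 0.55. NR1H4, the bile acid receptor FXR, had the smallest p. It was at 339, 594, 763 and 555 in control livers and 696, 3304, 1337 and 1459.8 in BPA livers, so 910 lay within the control range and the other 3 above it, as for CYP2J. The log2 difference was 1.43 (SE 0.47, limma adjusted p = 0.256).

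Receptors of foreign compounds had estimates of the same sign. NR1I3 was at 281 to 544 in controls and 543 to 1353 in BPA livers (1.09, limma adjusted p = 0.256), and AHR at 526 to 898 and 818 to 1386 (0.79, limma adjusted p = 0.258). NR1I2 was at 2791 to 4467 in controls and 3233 to 6909 in BPA livers (0.64, limma adjusted p = 0.358). All 3 pairs of ranges overlapped. NR5A2, which drives bile acid synthesis genes, did not overlap (435 to 650.5 and 662 to 1199), with a log2 difference of 0.55 (limma adjusted p = 0.320). NR0B2, a repressor that FXR induces, was at 66.0 in 902 and 521 to 879 in the other controls, and at 617 in 910 and 128 to 221 in the other BPA livers. These 5 receptors were named here after their values were seen.

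Partner results also depended on 902 and 910. Without control 902, limma called 0 of the 26, and the NR0B2 estimate moved from -0.74 to -1.60. Without BPA liver 910 it called 4, compared with 16.5% of all genes: FDX1 (-1.24, adjusted p = 0.0143), HMOX1 (-2.22, 0.0250), NR1H4 (1.78, 0.0258) and NR1I3 (1.29, 0.0480). Without both it called 15, of which 4 were higher and 11 lower, compared with 43.1% of all genes. NR1H4 (1.56), NR1I3 (1.13) and NR1I2 (0.78) were then among those higher, and HMOX1 (-2.44), NR0B2 (-2.06) and FDX1 (-1.26) among those lower. AHR (0.58) and NR5A2 (0.53) did not pass. As for the P450 genes, depth, cell type marker content and treatment cannot be told apart without both livers. Nor can macrophage marker content and treatment be told apart without 910 alone.

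**Figure D3:**
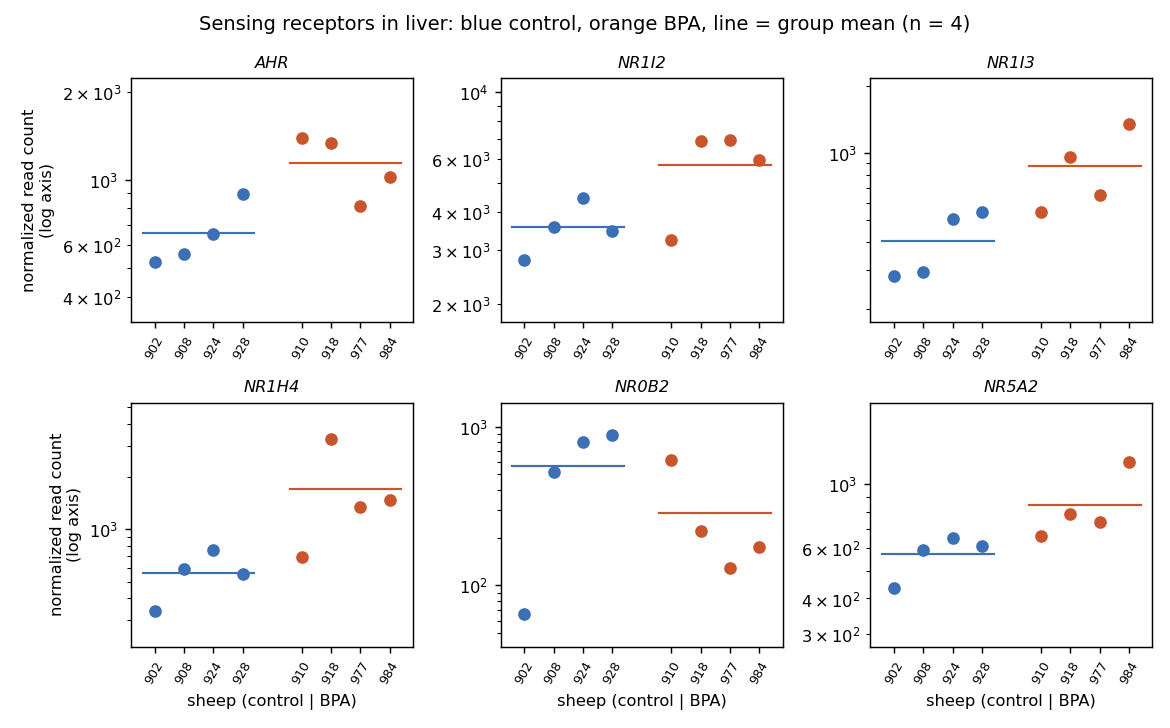
Normalized read count (log axis) in each liver for 6 receptors that control P450 genes, with control sheep in blue, BPA sheep in orange and a line at the group mean (n = 4). NR1H4 and NR1I2 are higher in BPA livers 918, 977 and 984 than in every control, while BPA liver 910 lies within the control range for both.

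Partner genes were also compared between tissues. Of 5 electron transfer genes, limma called 4 higher and 1 lower in liver, of 10 haem genes 4 higher and 3 lower, and of 11 receptors 8 higher and 0 lower, beside 36.1% higher and 35.3% lower of all genes. Among these, named after their values were seen, NR1I2 was 7.62 higher on the log2 scale and cytochrome b5 (CYB5A) 4.37 higher. FDX2, the second ferredoxin, was at -0.66, and at 0.28 without passing when libraries were scaled to equal totals.

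In muscle, no P450 gene passed the test between BPA and control sheep either. Of the 6 genes with a mean of at least 10, 0 were called by limma, compared with 0.129% of all 14706 genes, and 0 had an unadjusted p under 0.05, compared with 7.77%. Estimates were higher in BPA muscle for 2 and lower for 4, with a median log2 difference of -0.18, and lower for 50.5% of all genes. The groups overlapped for all 6, whereas they did not for 4.53% of all genes.

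The smallest p of the drug class in muscle was that of CYP1A1. It was at 31.7, 30.3, 21.1 and 25.3 in control muscles 902, 908, 924 and 928, and 18.9, 14.6, 25.3 and 21.9 in BPA muscles 910, 918, 977 and 984. Values overlapped, and the means of 27.1 ± 4.83 and 20.2 ± 4.53 (SD, n = 4 each) differed by -0.42 on the log2 scale (SE 0.25, limma adjusted p = 0.739).

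CYP2J again had a higher estimate. It was at 32.9, 34.6, 22.3 and 21.3 in control muscles and 36.8, 31.5, 33.7 and 38.9 in BPA muscles. Controls 902 and 908 lay among the BPA values and 924 and 928 below them. The log2 difference was 0.36 (SE 0.22, limma adjusted p = 0.751).

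The other 4 tested in muscle had log2 differences of -0.24 (CYP2A6) to 0.13 (CYP2D6), with limma adjusted p-values of 0.854 to 0.938. CYP2E1 was at 1060.5 in 902, 1029.5 in 910 and 378 to 682 in the other 6 muscles. CYP2A6 was likewise highest in 902 (189.9) and 910 (125), with 38.4 to 81.7 in the rest. Without the muscle of 902 the estimates of CYP2A6 (0.16), CYP2E1 (0.12) and CYP3A24 (0.014) were positive, and none passed.

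Hepatocyte markers were also read in muscle. All 16 had a lower estimate in BPA muscle and 3, the fibrinogen genes FGA, FGB and FGG, were called by limma. The sum of the 16 was 12994 to 19091 in controls and 6345 to 12432 in BPA muscles. Their part in the muscle values of the P450 genes was not tested. The 24 partner genes tested in muscle gave 0 calls by limma, with 6 higher and 18 lower. The smallest p of each list belonged to PGRMC1, a haem-binding partner of P450 enzymes (-0.16), ALAS1, the first enzyme of haem synthesis (-0.12), and NR5A2 (-0.30), with limma adjusted p-values of 0.758 to 0.802.

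Of the 5 genes too low for the main test in muscle, CYP2C19 was the one whose groups did not overlap, which was noticed after its values were seen. It was at 11.0, 5.90, 7.04 and 4.91 in controls and 4.46, 1.53, 4.21 and 4.05 in BPA muscles, or 6 to 9 reads and 2 to 5 reads. How often groups do not overlap among genes this low was not counted, and it was 4.53% among the genes of the main test. With the filter lowered to a value above 0 in at least 4 muscles, all 11 P450 genes were tested. Limma then called 0 of them, beside 27 of all 19950 genes. CYP2C18 ranged from 2.35 to 14.6, CYP11A1 from 0 to 20.7, CYP11B1 from 0 to 52.4 and CYP17A1 from 0 to 3.65 over the 8 muscles.

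**Figure D4:**
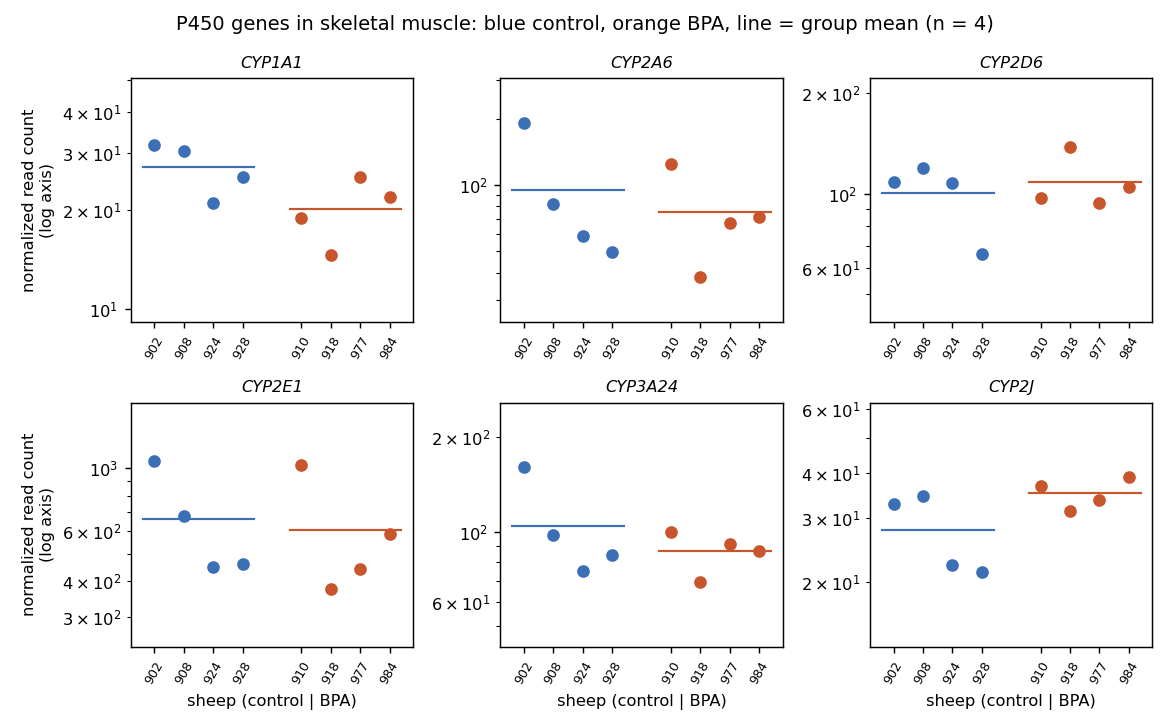
Normalized read count (log axis) of the 6 P450 genes tested in skeletal muscle, with control sheep in blue, BPA sheep in orange and a line at the group mean (n = 4). The groups overlap in each panel, and CYP2A6 and CYP2E1 are highest in control 902 and BPA 910.

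Whether the effect of BPA differed between tissues was tested over the genes with a mean of at least 10 in each. Of 6 P450 genes, 0 were called by limma, as were 0 of all 13677 genes (0%), of which 19.5% had an unadjusted p under 0.05, compared with 0 of the 6. For CYP2J the liver effect exceeded the muscle effect by 0.66 on the log2 scale (SE 0.40, limma adjusted p = 0.350). Without the BPA liver 910 that difference was 0.98 (limma adjusted p = 0.0250), the only 1 of the 6 to pass, beside 3550 of all 13694 genes. The BPA livers left in had macrophage sums of 1097 to 2241 and the control livers 6560 to 10415. Marker content and treatment therefore cannot be told apart there either. For the 5 drug genes tested the difference of effects ran from -1.04 (CYP2D6) to 0.39 (CYP3A24), each smaller in size than its own SE of at least 0.96.

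**Figure D5:**
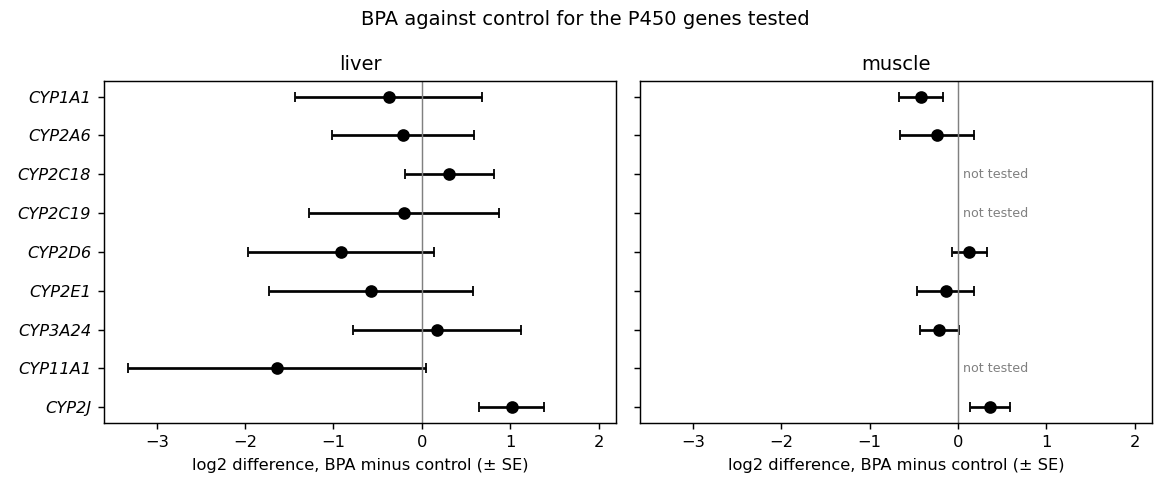
Log2 difference between BPA and control sheep with its standard error for the P450 genes tested, in liver (left) and muscle (right). Errors in liver are 0.37 for CYP2J and 0.50 to 1.69 for the others, and in muscle 0.20 to 0.42.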

How the data were processed

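RNA was sequenced from liver and muscle of 8 sheep (16 libraries). The deposited values are a normalized signal, each a gene's reads after division by the size factor of its library. Trimmomatic, FastQC and DESeq2 1.24.0 are named in the submitters' processing notes. Not given in the sources used here were the aligner, read counter, annotation, genome build and strandedness, so genes with near-identical relatives, common among P450 genes, and antisense neighbours are uncertain. Values were whole multiples of 1 step per library, so reads were recovered: at least 99.993% of values per library were whole within 0.1 read. All value columns were used (0 left out). Symbols were looked up in RefSeq ARS-UI_Ramb_v3.0, which held 22250 of 28524 and all 11 members. Rows named only by a gene number were not searched for P450 genes.

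Differences on the log2(value + 1) scale were tested in R 4.3.3 by limma 3.58.1 with an intensity trend, for genes whose mean reached 10 over the libraries compared (in each tissue for the difference of effects), with Benjamini-Hochberg adjustment over all genes tested, two-sided, threshold 0.05. This scale understates changes of low genes. Recovered reads were also tested with edgeR 4.0.16 and DESeq2 1.42.0. Other alternatives were pseudocounts, filters, scalings and leaving out libraries; leaving out 902 and 910 together and the depth term were chosen after seeing the data. The procedure was tested on simulated data with the same variability setting for every gene and no shifts in cell content between libraries. These livers differ from that, so the simulation does not show how the procedure does on them. Each p-value sets a difference against the spread between animals within groups. Between tissues, and for the difference of effects, the main fit took the 16 libraries of the 8 animals as independent. The animal as a block was an alternative.

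Per the labels the same sheep number marks 1 animal in both tissues. Deviations from the group means correlated between an animal's liver and muscle by -0.10 to 0.12 over 13677 genes, and at most by 0.09 to 0.17 with another animal's, so the pairing rests on the labels.

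Named with all values were members that passed, that did not overlap between groups where tested, or that had the smallest p of their class, and the smallest p of each partner list. Between tissues the widest gap of each class was named. The members and lists were chosen with earlier results of these data known.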

Additional observations from a re-analysis of the deposited data

Results flagged for a closer look

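Of 44 sets of 4 libraries (11 P450 genes in 4 groups), 10 had a highest or lowest library whose gap to its neighbour passed Dixon's critical share of the range of the set. For independent sets of normally distributed values, chance gives such a library in about 1 in 20 sets. That rate does not hold here, because the sets share animals and many values are 0. A set at 0 in all libraries but 1 always passes, as for CYP11A1 in BPA liver and CYP11B1 in control liver. The count of 10 is therefore not a measure against chance.

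Sheep 902 accounted for 5. It was highest among controls for CYP11A1 in liver (149) and muscle (20.7) and for CYP11B1 in liver (17.0) and muscle (52.4), and lowest for CYP2C18 in liver (181). BPA liver 910 was highest in its group for CYP2C19 (1127) and CYP2E1 (143589). The remaining 3 rested on few reads: CYP11A1 in BPA liver 984 (1.68), CYP11B1 in BPA muscle 977 (7.02) and CYP2C19 in BPA muscle 918 (1.53, the lowest).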

How the results depend on the processing

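Of the single P450 values recomputed, 239 of 239 between tissues kept their direction and their side of the threshold, and 8 P450 genes passed under all alternatives except the lower filter, under which 9 passed. With the animal as a replicate block, 11091 genes and 8 P450 genes passed between tissues, compared with 11420 and 8 without it. For the difference of effects 0 and 0 passed with or without the block. The block therefore changed no call of a P450 gene. With libraries scaled to equal totals the median of all genes in liver moved from -0.01 to 0.15, and between tissues FDX2 moved to 0.28.

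Leaving out 1 library at a time gave 0 to 2595 genes and 0 to 1 P450 genes called in liver. The highest counts in liver were those without 910, at 2595 of 15741 genes. In muscle it gave 11 to 31 genes and 0 P450 genes. For the difference of effects it gave 0 to 3550 genes and 0 to 1 P450 genes, the highest without liver 910 (3550 of 13694 genes). In liver the estimates then ranged from -1.54 to 0.35 for CYP1A1, -1.10 to 0.14 for CYP2A6, -0.25 to 0.52 for CYP2C18, -1.39 to 0.32 for CYP2C19, -2.16 to -0.35 for CYP2D6, -1.69 to -0.065 for CYP2E1 and -0.86 to 0.65 for CYP3A24. In muscle they ranged from -0.52 to 0.16 for CYP2A6, -0.062 to 0.22 for CYP2D6, -0.43 to 0.12 for CYP2E1 and -0.35 to 0.014 for CYP3A24. The CYP2J estimate in liver was positive under all alternatives, from 0.70 to 1.34.

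DESeq2 called 196 genes in liver, 131 in muscle and 148 for the difference of effects, but 0 P450 genes, while edgeR called 0, 19 and 0. CYP3A24 in liver took the opposite sign with edgeR (-0.34) and DESeq2 (-0.31). With depth class as a term the liver estimates were 1.21 for CYP1A1, 0.89 for CYP2A6, 1.59 for CYP2C19, 0.49 for CYP2D6, 1.15 for CYP2E1 and 0.57 for NR0B2. They rest on 902 as the only control under 15 M reads and on 910 as the only BPA liver over it. Without 902 and 910 the calls were 6594 of 15296 genes and 6 of 8 P450 genes in liver, with CYP2C18 at -0.34 and CYP3A24 at -1.13. They were 44 of 14619 genes in muscle, and 5739 of 13436 genes and 5 of 6 P450 genes for the difference of effects. Apart from the libraries left out, the cause was not tested. The SEs of the drug genes in liver limit what 4 sheep a group can show. P450 genes with a mean under 10 were left out of the main fits. The lower filter took genes above 0 in at least 4 of the libraries compared. Between BPA and control it called 0 of 9 P450 genes in liver and 0 of 11 in muscle. For the difference of effects it called 0 of 11.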

Other observations

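Rows with older P450 names, without a subfamily letter, lay outside the rule for members and were looked at after the values of sheep 902 had been seen. CYP19, the name of the aromatase that makes oestrogens, was at 143 in control liver 902, or 76 reads, at 0 to 3.36 in the other 7 livers and at 0 to 2.23 in the muscles, with 0 in the muscle of 902. CYP17 was at 0 to 4.46 and CYP24 at 0 to 6.24 over the 16 libraries. CYP4F21, which had a member's symbol, was at 10.4 in BPA liver 918 and at 0 in the other 15 libraries.

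Genes that supply steroid synthesis, chosen after those values were seen, were also highest in sheep 902. STAR, which carries cholesterol into mitochondria, was at 122 in its liver, with 3.44 to 10.4 in the other livers, and at 68.2 in its muscle, with 4.60 to 17.8 in the other muscles. HSD3B1, which converts pregnenolone to progesterone, was at 158 in its liver, with 1.38 to 14.6 in the others, and at 52.4 in its muscle, with 0 to 1.40 in the others.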
